A study of Mus musculus with 12 samples.

Results

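The 32 genes described here encode enzymes of cholesterol synthesis and of fatty acid synthesis, together with the proteins that control their transcription. They are a list of gene names that sets no threshold on values but was drawn up with earlier results of these data known, and all 32 were found among the 32288 genes and transgenes of the count table. By role, 7 act in the mevalonate pathway, 11 from the making of squalene to cholesterol, 5 in control by the SREBP transcription factors or in sterol transport, 4 in the synthesis of saturated fatty acids, and 5 in the elongation and desaturation of fatty acids. The 11 include *Fdft1*, whose product makes squalene, and are called the genes from squalene to cholesterol below.

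Bulk RNA-seq was done on sorted mGFP+ cells of the metaphysis, the part of a long bone beneath the growth plate. All mice carried *Osx-CreERT2*, a tamoxifen-activated Cre driven by the osteoblast gene *Osx* (*Sp7*), and *mTmG*, a reporter that Cre switches from tdTomato to GFP, and all received tamoxifen. The 4 juvenile and 4 adult libraries came from *Osx-CreERT2*; *mTmG* mice aged 3 and 8 weeks, with the bones of 2 male mice pooled for each library. These mice had tamoxifen on 3 days, cells were taken 2 days later, and the trim of the shaft lay about 2 mm from the growth plate. The 2 *c-Myc* libraries came from mice that also carried *LSL-tTA* and *Col1a1::TetO–c-Myc*, so that Cre turns on a *c-Myc* transgene. The 2 *c-Myc* + *R172H* libraries came from mice that in addition carried *Trp53-LSL-R172H*, a mutant p53 allele that Cre releases. For induced mice, tamoxifen was given on 2 days at 3 weeks of age, cells were taken 7 days afterwards, and the trim lay about 5 mm from the growth plate, in mice called 5 weeks old at dissection. The number of mice behind an induced library is not given in the sources used here. To prevent early expression of the transgene, mice carrying it or pregnant females drank doxycycline or tetracycline, which was stopped before analysis. Induction, this drug, age at dissection, days of tamoxifen, the interval after it and the trim differ together between induced and juvenile libraries. Sex and the number of mice for each library may differ as well. The parts of all these in a difference cannot be told apart.

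Total counts were between 9066154 and 15684412 per library, and the lowest and highest raw counts of a member in any library were 3 (*Idi1*) and 14106 (*Fasn*). *Myc* was at 43.9, 51.8, 39.2 and 46.5 CPM (counts relative to TMM-scaled library sizes) in juvenile libraries and at 638 and 667 CPM in *c-Myc* libraries, in the direction of the labels. *Trp53* cannot check the R172H label, because the mutant allele is read from the same gene. *Xist* was at 237 CPM in *c-Myc* replicate 2 and at 217 CPM in *c-Myc* + *R172H* replicate 2, and at most 1.23 CPM in the other 10 libraries, so that 1 library of each induced group differs from the rest in this gene of the inactive X chromosome. The paper's methods state both that RNA-seq used males and that the induced cells came from both sexes. The 10 osteoblast markers had no gene at 0 in any group, and they summed to between 566170.0 and 828550.0 CPM in juvenile, 339550.0 and 611030.0 CPM in adult, 102130.0 and 134340.0 CPM in *c-Myc* and 57813 and 59868 CPM in *c-Myc* + *R172H* libraries. The 12 adipocyte markers summed to between 2.49 and 19.9 CPM in every library, with *Cidec*, *Retn* and *Lep* at 0 in all 4 groups, and the 14 haematopoietic markers summed to at most 14.9 CPM.

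Cholesterol is built from acetyl-CoA. The mevalonate pathway turns acetyl-CoA into farnesyl pyrophosphate, 2 molecules of which are joined to squalene, and squalene is closed to lanosterol and trimmed to cholesterol. Fatty acids are built from the same precursor: ATP citrate lyase makes cytosolic acetyl-CoA, acetyl-CoA carboxylase makes malonyl-CoA, fatty acid synthase assembles palmitate, and elongases and desaturases then lengthen it and add double bonds. The membrane-bound factors SREBP1 and SREBP2 are carried by SCAP to the Golgi for cleavage when sterols are low, INSIG proteins hold SCAP back when sterols are high, and the freed factors act with NF-Y at the promoters of both branches.

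Promoters of the members are shown for the sequence that these factors read. RefSeq (GRCm38.p6) gave a promoter of 250 bases before to 50 bases after the start for 25 of the 32 genes. The other 7 were *Fdps*, *Fdft1*, *Sqle*, *Stard4*, *Scd1*, *Scd2* and *Fads1*. The 3 motifs below were searched on both strands: the sterol response element core TCACNCCAC, the NF-Y box CCAAT and the E-box CACGTG, the letters that MYC and SREBP1 can both bind. The NF-Y box was in a promoter of 20 of the 25 genes (80%) and in 41.1% of 27025 mouse genes. The sterol response element core was in 1 of the 25 (4%), against 1.44% of all genes, and the E-box in 5 (20%), against 8.09%. These are matches of letters and no measure of binding. The sequences below run 5′ to 3′ on the strand of the gene, with motif matches on either strand in capitals. *Hmgcs1* is shown for the sterol response element core and 4 NF-Y boxes. *Lss* and *Cyp51* are shown as genes that were lower in juvenile than in adult libraries, and *Fasn* and *Elovl6* as genes that were higher with *c-Myc*. *Insig1* and *Scap* are shown because both hold an E-box and were called in opposite directions with *c-Myc*.
Hmgcs1 (chr13:119690101-119690400, plus strand): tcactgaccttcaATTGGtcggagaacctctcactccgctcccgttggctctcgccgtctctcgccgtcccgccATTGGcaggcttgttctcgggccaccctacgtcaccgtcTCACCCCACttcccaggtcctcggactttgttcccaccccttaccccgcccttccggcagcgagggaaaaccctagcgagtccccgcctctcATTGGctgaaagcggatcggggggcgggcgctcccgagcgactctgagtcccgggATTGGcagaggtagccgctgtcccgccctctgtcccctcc
Lss (chr10:76531355-76531654, plus strand): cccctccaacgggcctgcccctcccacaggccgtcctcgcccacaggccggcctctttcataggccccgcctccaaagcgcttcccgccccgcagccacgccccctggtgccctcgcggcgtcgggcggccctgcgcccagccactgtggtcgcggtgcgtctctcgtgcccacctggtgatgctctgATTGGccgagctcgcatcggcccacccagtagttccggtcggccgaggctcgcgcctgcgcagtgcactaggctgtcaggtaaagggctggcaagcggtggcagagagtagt
Cyp51 (chr5:4104648-4104947, minus strand): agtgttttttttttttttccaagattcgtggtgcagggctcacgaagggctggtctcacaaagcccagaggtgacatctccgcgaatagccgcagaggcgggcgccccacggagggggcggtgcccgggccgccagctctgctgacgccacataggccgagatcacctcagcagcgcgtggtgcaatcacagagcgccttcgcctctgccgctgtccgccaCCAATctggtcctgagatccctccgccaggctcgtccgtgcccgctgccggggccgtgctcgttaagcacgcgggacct
Fasn (chr11:120824498-120824797, minus strand): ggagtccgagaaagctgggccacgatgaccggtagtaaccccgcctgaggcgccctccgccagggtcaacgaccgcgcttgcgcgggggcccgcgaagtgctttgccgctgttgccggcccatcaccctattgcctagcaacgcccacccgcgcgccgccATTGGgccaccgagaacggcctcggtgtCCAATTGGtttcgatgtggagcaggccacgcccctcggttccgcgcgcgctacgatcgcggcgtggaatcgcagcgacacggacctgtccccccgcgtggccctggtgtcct
Elovl6 (chr3:129532136-129532435, plus strand): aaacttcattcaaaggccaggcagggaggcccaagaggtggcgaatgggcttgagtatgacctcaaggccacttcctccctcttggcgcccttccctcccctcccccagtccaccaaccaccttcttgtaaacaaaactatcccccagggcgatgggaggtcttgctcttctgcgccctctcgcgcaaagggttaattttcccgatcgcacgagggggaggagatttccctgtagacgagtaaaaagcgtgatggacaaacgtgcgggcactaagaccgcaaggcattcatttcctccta
Insig1 (chr5:28071162-28071461, plus strand): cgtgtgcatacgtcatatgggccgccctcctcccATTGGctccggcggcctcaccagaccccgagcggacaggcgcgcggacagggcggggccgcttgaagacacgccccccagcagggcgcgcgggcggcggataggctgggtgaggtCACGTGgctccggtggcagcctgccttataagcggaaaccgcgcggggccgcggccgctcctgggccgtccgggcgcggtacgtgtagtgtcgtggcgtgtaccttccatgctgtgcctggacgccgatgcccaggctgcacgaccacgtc
Scap (chr9:110333106-110333405, plus strand): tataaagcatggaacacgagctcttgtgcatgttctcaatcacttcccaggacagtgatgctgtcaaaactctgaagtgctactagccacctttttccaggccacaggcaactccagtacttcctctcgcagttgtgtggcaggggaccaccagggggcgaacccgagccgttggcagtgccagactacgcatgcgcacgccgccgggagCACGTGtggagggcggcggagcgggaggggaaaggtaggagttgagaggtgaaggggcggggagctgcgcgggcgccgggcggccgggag
*Hmgcs1* held the sterol response element core 137 bases before its start. *Lss* and *Cyp51* each held 1 NF-Y box, and *Fasn* held 3 within 90 bases of its start. None of the 3 motifs was found in the promoter given for *Elovl6*, the gene with the largest fold change among the 32, nor in those given for *Acat2*, *Acaca* and *Fads2*. The stretch given for *Acaca* (chr11:84195188-84195487) lies inside the gene, which is annotated from 84129672 to 84401651. The annotated start of *Acaca* was therefore not searched. Besides *Insig1* and *Scap*, the E-box was found in *Hsd17b7*, *Sc5d* and *Dhcr7*.

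Levels were compared between genes as CPM per kilobase of exons (GENCODE annotation of GRCm38). On this scale *Scd2*, a stearoyl-CoA desaturase, was the highest of the 32 in juvenile, adult and *c-Myc* libraries, at group means of 83.9, 164 and 62.0 CPM per kilobase. *Scd1* followed in juvenile and adult libraries with 38.8 and 86.6 CPM per kilobase. In *c-Myc* libraries *Fasn* was second, at 59.9 CPM per kilobase, after rank 4 in both uninduced groups. In *c-Myc* + *R172H* libraries *Fasn* was first and *Scd2* second, at 54.1 and 48.4 CPM per kilobase. The lowest were *Tm7sf2*, a sterol reductase, and *Idi1*, an isomerase of the mevalonate pathway, at 0.258 and 0.362 CPM per kilobase in juvenile libraries. *Elovl6* moved from rank 26 in juvenile to rank 11 in *c-Myc* libraries.

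**Figure D1:**
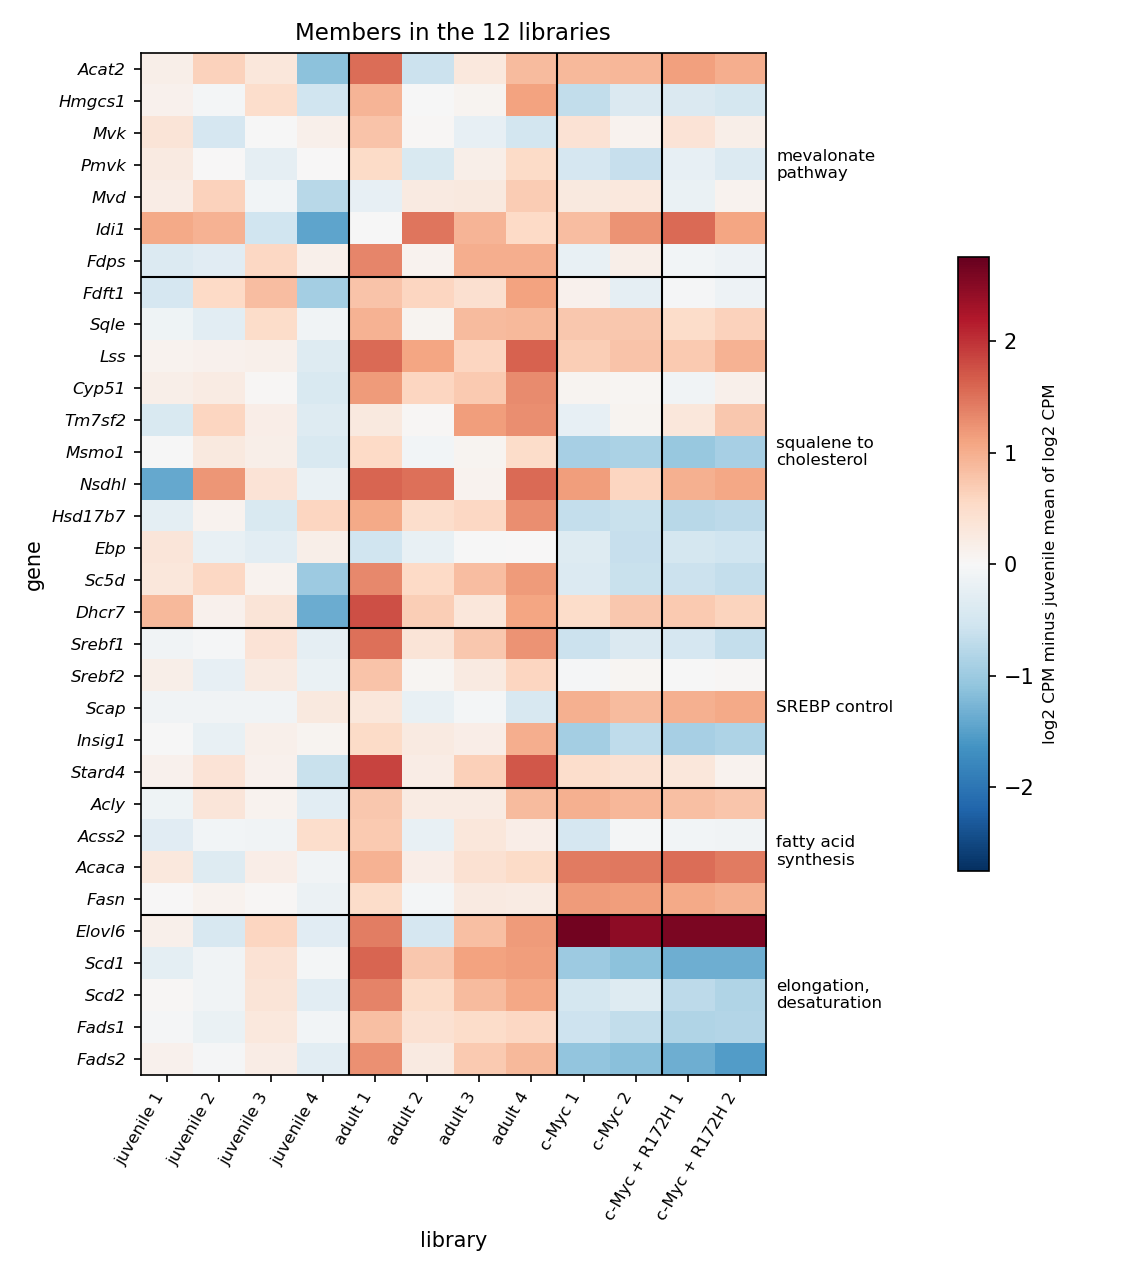
Level of the 32 genes (rows, by role) in the 12 libraries (columns), as log2 CPM minus the mean log2 CPM of the juvenile libraries, from blue (below) to red (above). Most rows are redder in the adult columns than in the juvenile ones, while in the induced columns *Acly*, *Acaca*, *Fasn* and *Elovl6* are red and *Scd1*, *Scd2*, *Fads1* and *Fads2* are blue; with library totals as the scale *Scd2* and *Fads1* would be above the juvenile mean there (log2 fold changes 0.33 and 0.14 with *c-Myc*).

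The first comparison was between juvenile and adult *Osx*+ osteoblasts. The 4 fatty acid desaturase genes *Scd1*, *Scd2*, *Fads1* and *Fads2*, the sterol enzymes *Lss* and *Cyp51* and the transcription factor gene *Srebf1* were lower in juvenile libraries. These were 7 of 32 genes, and none was higher, whereas 3.23% of the 11345 genes tested were called lower and 1.89% higher (edgeR's quasi-likelihood test, Benjamini-Hochberg adjusted p below 0.05). All 32 passed the filter on low counts. The point estimate lay below 0 for 30 of the 32, the exceptions being *Ebp* and *Scap*, and the median log2 fold change was -0.59, against 0.00093 over all genes tested. An unadjusted p below 0.05 was found for 17 members (53.1%) and for 19.7% of all genes. When libraries were scaled by their totals without TMM factors, the median of all genes moved to -0.24, the share of called genes that were higher went from 36.8% to 6.26%, *Ebp* and *Scap* also fell below 0, and 16 members were called lower and none higher. Relative to that shifted median, 2 members were above and 30 below. DESeq2 called 11 members lower and none higher, and neither member with an estimate above 0 had an unadjusted p below 0.05 in edgeR's test. Over all genes, 793 of 11345 were called lower with library totals and 619 of 13122 with DESeq2.

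*Scd1* and *Scd2* encode stearoyl-CoA desaturases, which place the first double bond in saturated fatty acids. *Scd1* was at 156, 176, 246 and 181 CPM in juvenile replicates 1 to 4 and at 565, 312, 403 and 414 CPM in adult replicates 1 to 4. The lowest adult library lay above the highest juvenile one. In all, 7 members were lower in juvenile libraries without overlap and none higher, beside 6.79% and 6.16% of all genes tested. The log2 fold change of *Scd1*, juvenile over adult, was -1.16 (adjusted p = 0.00148, SE 0.18) in edgeR's test. *Scd2* was at 462, 425, 577 and 370.1 CPM in juvenile and at 1158, 649, 831 and 941 CPM in adult libraries, again without overlap, and its log2 fold change was -0.97 (adjusted p = 0.00443, SE 0.17). A few percent of the 86-base stretches of these transcripts are shared within the *Scd* family, 2.93% for *Scd1* and 1.37% for *Scd2*.

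*Fads1* and *Fads2* encode the delta-5 and delta-6 desaturases of polyunsaturated fatty acids and are neighbours on chromosome 19. *Fads1* was at 76.6, 69.9, 95.9 and 74.9 CPM in juvenile and 140.1, 106, 111 and 116 CPM in adult libraries. *Fads2* was at 120.3, 109, 128 and 90.7 CPM in juvenile and 265, 132, 183 and 205 CPM in adult libraries. Neither gene overlapped between the ages, although for *Fads2* adult replicate 2 and juvenile replicate 3 were only a few CPM apart. The log2 fold changes were -0.58 (adjusted p = 0.0166, SE 0.13) and -0.82 (adjusted p = 0.0152, SE 0.18) by edgeR. *Elovl6*, which extends palmitate to stearate, was not called. It was at 10.5, 7.07, 14.4 and 7.71 CPM in juvenile and 25.4, 6.91, 17.0 and 21.4 CPM in adult libraries, so adult replicate 2 was below every juvenile library, and its log2 fold change was -0.85 (adjusted p = 0.175, SE 0.34).

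Among the 11 enzymes from squalene to cholesterol, *Lss* and *Cyp51* were called. *Lss*, the lanosterol synthase that closes the sterol rings, was at 10.0, 10.1, 10.3 and 7.35 CPM in juvenile and 27.6, 19.9, 14.1 and 29.0 CPM in adult libraries. *Cyp51*, the lanosterol demethylase, was at 26.1, 27.1, 24.0 and 17.4 CPM in juvenile and 52.1, 35.0, 38.2 and 57.4 CPM in adult libraries. Both genes were separate between the ages, with log2 fold changes of -1.27 (adjusted p = 0.00585, SE 0.24) and -0.96 (adjusted p = 0.00701, SE 0.18) by edgeR. The fold change of *Lss* was the largest of the 32 genes in this comparison. The other 9 had adjusted p-values of 0.0692 or more. Closest to the threshold were *Sqle*, the squalene epoxidase (-0.72, adjusted p = 0.0692 by edgeR), *Hsd17b7*, a sterol ketoreductase (-0.83, 0.0696), and *Sc5d*, which adds the C5 double bond (-0.90, 0.0751). *Dhcr7*, the reductase of the last step, ranged from 3.43 to 16.2 CPM among juvenile libraries and from 10.9 to 29.9 CPM among adult ones (log2 fold change -0.87, SE 0.42). *Ebp*, the sterol isomerase, had the highest point estimate of the 32, with a log2 fold change of 0.19 (95% interval -0.21 to 0.60; -0.047 with library totals). The fold changes of *Fdft1*, *Tm7sf2*, *Msmo1* and *Nsdhl* were between -1.04 and -0.28, with intervals that included 0.

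The 7 genes of the mevalonate pathway had adjusted p-values of 0.0622 or more by edgeR, 1 of them had an unadjusted p below 0.05, and all 7 point estimates were below 0, from -0.89 to -0.082. *Fdps*, the farnesyl pyrophosphate synthase, was at 9.05, 9.42, 17.4 and 13.0 CPM in juvenile and 29.7, 12.6, 23.7 and 23.6 CPM in adult libraries. The groups overlapped through adult replicate 2, and the log2 fold change was -0.89 (adjusted p = 0.0622, SE 0.27) by edgeR. *Hmgcs1*, the HMG-CoA synthase that precedes the rate-limiting reductase, was at 43.1, 38.7, 55.8 and 27.3 CPM in juvenile and 76.7, 39.6, 42.2 and 86.2 CPM in adult libraries (log2 fold change -0.58, 95% interval -1.24 to 0.076). Its 2 highest values were those of adult replicates 1 and 4, while adult replicates 2 and 3 lay within the juvenile range. The kinases *Mvk* and *Pmvk* and the decarboxylase *Mvd* had log2 fold changes of -0.082, -0.25 and -0.20. For *Acat2*, *Idi1* and *Fdps*, 31.7%, 22.8% and 22.6% of their 86-base stretches also occur in other genes, so their counts of uniquely mapped reads are uncertain, and the same holds for *Fdft1* with 20.2% and *Acaca* with 25.3%.

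Of the control genes, *Srebf1* was called. It encodes SREBP1, which acts mainly on fatty acid synthesis, and was at 66.5, 70.0, 91.8 and 59.6 CPM in juvenile and 203, 90.2, 119 and 167 CPM in adult libraries. Juvenile replicate 3 was just above adult replicate 2, so the ages overlapped, and the log2 fold change was -1.02 (adjusted p = 0.0287, SE 0.23) in edgeR's test. *Srebf2*, whose product SREBP2 acts mainly on cholesterol synthesis, had a log2 fold change of -0.44 (adjusted p = 0.123, SE 0.16). *Insig1*, the sterol-dependent anchor of SCAP, was not called at -0.53 (adjusted p = 0.0644, SE 0.16), although its values did not overlap, with 66.8, 58.6, 73.6 and 70.9 CPM in juvenile and 97.2, 80.1, 76.6 and 134 CPM in adult libraries. *Stard4*, a cholesterol carrier, was at 9.86, 11.9, 9.87 and 6.0 CPM in juvenile and 32.9, 10.6, 14.3 and 29.8 CPM in adult libraries, and its log2 fold change of -1.23 had an adjusted p of 0.0502 by edgeR. *Scap* was between 39.0 and 50.3 CPM in juvenile and between 30.6 and 51.9 CPM in adult libraries (log2 fold change 0.070; -0.18 with library totals).

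The genes that make palmitate were not called between the ages. *Acly*, the ATP citrate lyase, and *Acaca*, the acetyl-CoA carboxylase, had log2 fold changes of -0.53 (SE 0.17, adjusted p = 0.0720 by edgeR) and -0.54 (SE 0.19, adjusted p = 0.118). *Fasn*, the fatty acid synthase, was at 298, 314, 302 and 264 CPM in juvenile and 415, 284, 350.2 and 345 CPM in adult libraries, and its log2 fold change was -0.25 with a 95% interval of -0.52 to 0.019. *Acss2*, which makes acetyl-CoA from acetate, had a log2 fold change of -0.28 and an interval of -0.99 to 0.43.

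Markers of other cell types differed between the ages too. The summed level of the 12 chondrocyte markers was 28315, 34926, 36222 and 18465 CPM in juvenile replicates 1 to 4 and 140120.0, 44044, 66131 and 86448 CPM in adult replicates 1 to 4, and none was at 0 in either group. Of the 12, 11 had a point estimate below 0 and 1 of them was called, and the median log2 fold change was -1.88. By edgeR 9 of the 12 had an unadjusted p below 0.05 (75%, beside 19.7% of all genes). The summed level of *Elovl6*, *Scd1*, *Scd2*, *Fads1* and *Fads2* was 826, 787, 1061 and 725 CPM in juvenile and 2154, 1206, 1545 and 1698 CPM in adult libraries. Among the 4 adult libraries both sums had the order replicate 2, 3, 4 and 1, from low to high. Among the 4 juvenile libraries the orders differed, with 4, 1, 2 and 3 for the chondrocyte markers and 4, 2, 1 and 3 for the members. The 11 genes from squalene to cholesterol summed to 236, 161, 173 and 243 CPM in adult replicates 1 to 4. Their order was 2, 3, 1 and 4. With a chondrocyte marker score as a covariate, a setting chosen after seeing the data, no member was called, 13 of 32 point estimates changed sign and the median of the members was -0.13, while 14 genes were called higher and 51 lower over the whole table. That score nearly separates the ages and leaves little information on age. The 10 marrow stroma markers summed to between 416 and 527 CPM in juvenile and between 563 and 867 CPM in adult libraries, and of the 9 tested all had a point estimate below 0, 7 an unadjusted p below 0.05 and 1 was called by edgeR. The 14 haematopoietic markers summed to between 1.36 and 6.58 CPM in juvenile and between 9.34 and 14.9 CPM in adult libraries, with *Ptprc*, *Spi1* and 5 others at 0 in all juvenile libraries, and 1 of the 3 tested was called lower. Of the 10 osteoblast markers 3 were called higher in juvenile libraries and none lower, and 8 had an unadjusted p below 0.05 by edgeR. The part of the stroma, haematopoietic and osteoblast markers in the values of the members was not tested. In bulk samples, more cells of another type and more RNA of these genes per cell cannot be told apart.

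**Figure D2:**
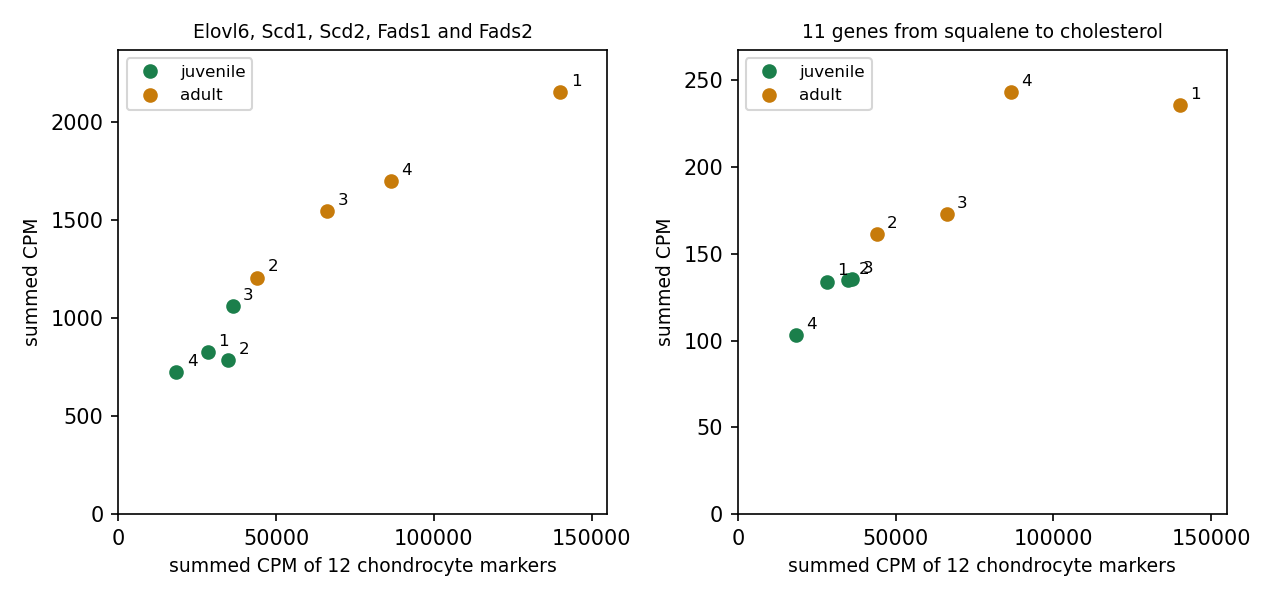
Summed CPM of 5 elongation and desaturation genes (left) and of the 11 genes from squalene to cholesterol (right) against the summed CPM of 12 chondrocyte markers, for the 4 juvenile (green) and 4 adult (orange) libraries, numbered by replicate. Adult libraries are higher on both axes, and adult replicates 1 and 4, with 140120.0 and 86448 CPM of chondrocyte markers, have the highest sums.

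The count of 7 rested in part on single libraries. Without juvenile replicate 2 it was 4, and without adult replicate 2 it was 16. Over all genes 199 were called lower in the former fit and 541 in the latter. *Lss*, *Cyp51*, *Scd1* and *Scd2* were called in all 8 fits that left out 1 library. *Srebf1* lost its call without juvenile replicate 1, 2 or 4 or adult replicate 4, *Fads1* without juvenile replicate 1, 2 or 4 or adult replicate 1, and *Fads2* without juvenile replicate 2 or adult replicate 4. The log2 fold change across these fits was -1.18 to -0.81 for *Srebf1*, -0.69 to -0.49 for *Fads1* and -0.96 to -0.64 for *Fads2*.

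**Figure D3:**
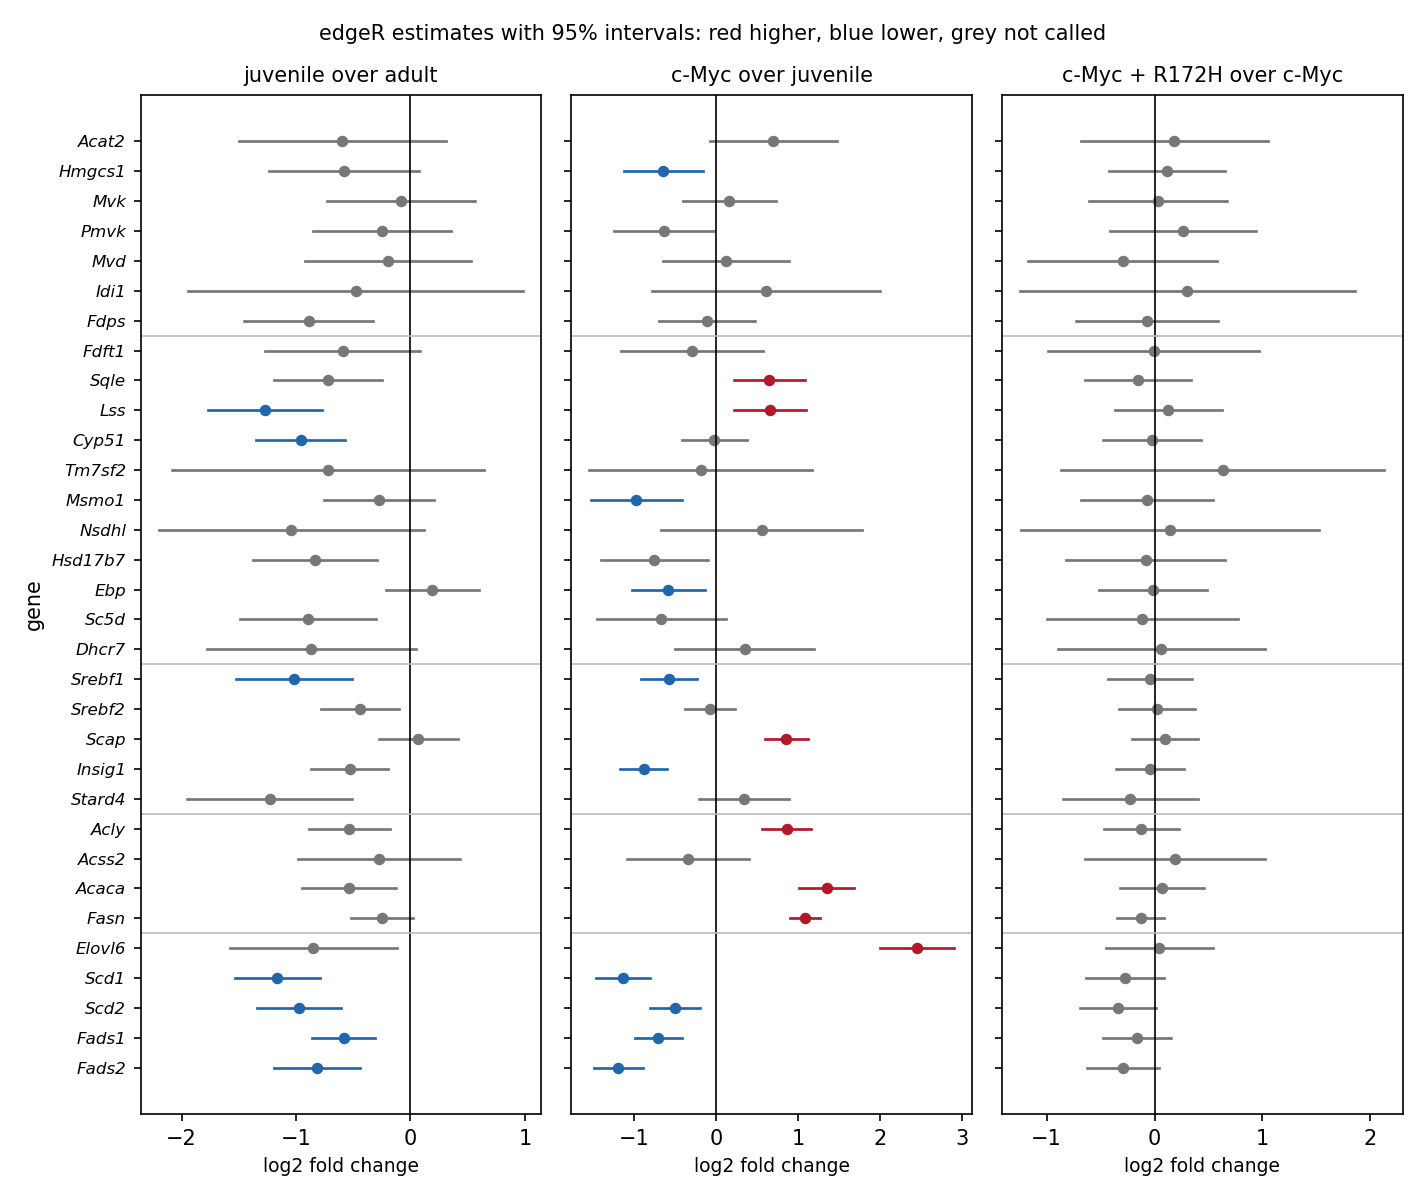
Log2 fold changes of the 32 genes with 95% intervals from edgeR (points and bars, horizontal axis) for 3 comparisons: red, called higher; blue, called lower; grey, not called. Between the ages 7 genes are blue and none is red, with *c-Myc* 7 are red and 9 blue, and all 32 are grey for *c-Myc* + *R172H* over *c-Myc*; with library totals *Hmgcs1*, *Ebp*, *Srebf1*, *Scd2* and *Fads1* of the 9 blue genes have log2 fold changes above 0 with *c-Myc*.

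The second comparison was between *c-Myc* and juvenile libraries. Of the 4 palmitate genes *Acly*, *Acaca* and *Fasn* were called higher and *Acss2* was not called, and of the 5 elongation and desaturation genes *Elovl6* was called higher and the 4 desaturase genes lower, in a comparison in which over 50% of all genes were called. *Elovl6*, *Acaca*, *Fasn* and *Acly*, set together here after their values were seen, rose with *c-Myc* by factors of 5.47, 2.55, 2.13 and 1.82, whereas the desaturase genes *Scd1*, *Scd2*, *Fads1* and *Fads2* were at 0.455, 0.707, 0.615 and 0.438 times their juvenile level with TMM. In all, 7 members were called higher and 9 lower, beside 28.4% and 25% of the 12588 genes tested by edgeR, so that the shares of members (7 and 9 of 32) were near those of all genes. With a change of at least 1 in log2, 3 members were higher (18.4% of all genes) and 2 lower (16%). The median of the 32 was -0.092, against 0.037 over all genes. The median was 0.97 for the 4 palmitate genes and -0.19 for the 11 genes from squalene to cholesterol.

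The scale matters in this comparison. *Col1a1* took 36.5% of the counts in juvenile and 10.2% in *c-Myc* libraries, and *Gm26917* took 7.83% and 28.8%. With library totals the median log2 fold change of all genes moved to 0.87, the share of called genes that were higher went from 53.2% to 85.9%, and 16 members were called higher and none lower. Over all genes 6803 of 12588 were called higher there and 1115 lower. Relative to the median of 0.87, 14 of the 32 were above and 18 below, as with TMM. In that setting *Scd1*, *Fads2*, *Msmo1* and *Insig1* were still below 0, at -0.29, -0.36, -0.15 and -0.050, while *Scd2*, *Fads1*, *Hmgcs1*, *Ebp* and *Srebf1* were above 0, at 0.33, 0.14, 0.18, 0.25 and 0.26, and therefore below 0 only relative to the median of all genes. Changes are given below on the TMM scale, with that median near 0.

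*Elovl6* was at 10.5, 7.07, 14.4 and 7.71 CPM in juvenile libraries and at 59.9 and 52.7 CPM in *c-Myc* replicates 1 and 2. *Acaca* was at 26.7, 17.0, 24.7 and 20.3 CPM in juvenile and 59.0 and 59.3 CPM in *c-Myc* libraries. The induced libraries of both genes were more than 2 times the highest juvenile value. The log2 fold changes were 2.45 (adjusted p = 9.21e-07, SE 0.21) for *Elovl6* and 1.35 (adjusted p = 1.37e-05, SE 0.16) for *Acaca* in edgeR's test. *Fasn* was at 658 and 653 CPM in *c-Myc* libraries, above its highest juvenile value of 314 CPM, and its log2 fold change was 1.09 (adjusted p = 4.46e-07, SE 0.084). *Acly* was at 69.6, 93.9, 79.7 and 61.0 CPM in juvenile and 148 and 141 CPM in *c-Myc* libraries (log2 fold change 0.86 (adjusted p = 1.77e-04, SE 0.14) by edgeR). These 4 genes were called in all 18 alternative fits. *Acss2* had a log2 fold change of -0.34 with a 95% interval of -1.09 to 0.41 and was not called.

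The 4 desaturase genes were called lower on the TMM scale. *Scd1* was at 94.1 and 86.1 CPM in *c-Myc* libraries, below the lowest juvenile value of 156 CPM, with a log2 fold change of -1.14 (adjusted p = 4.41e-05, SE 0.15) by edgeR. *Fads2* was at 52.6 and 50.1 CPM, below its lowest juvenile value of 90.7 CPM, with a log2 fold change of -1.19 (adjusted p = 1.42e-05, SE 0.14). *Fads1* was at 52.9 and 49.0 CPM, against a lowest juvenile value of 69.9 CPM, and *Scd2* was at 323 and 355 CPM, against 370.1 CPM. For all 4 genes the *c-Myc* libraries lay below every juvenile library. Such separation was common in this comparison: 10 members lay below and 9 above, beside 27.6% and 37.2% of all genes tested. The log2 fold changes were -0.70 (adjusted p = 6.05e-04, SE 0.13) for *Fads1* and -0.50 (adjusted p = 0.0103, SE 0.14) for *Scd2* by edgeR, and both were above 0 with library totals, as given above. *Scd2* was not called without *c-Myc* replicate 1 (-0.42, adjusted p = 0.0983 by edgeR).

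**Figure D4:**
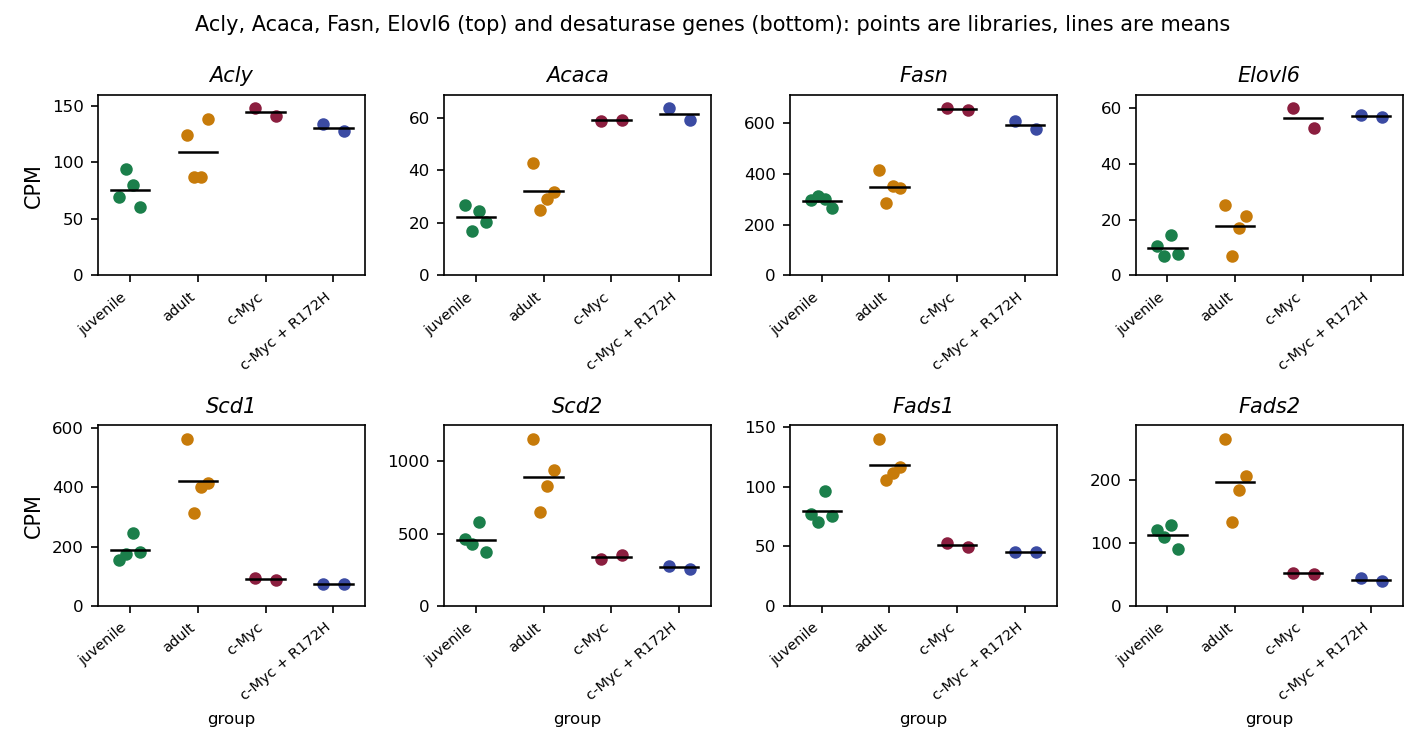
Level (CPM with TMM factors, axes from 0) of *Acly*, *Acaca*, *Fasn* and *Elovl6* (top) and of 4 desaturase genes (bottom), rows set after the values were seen, in the 4 groups; points are libraries and lines are group means. In the top row the 4 induced libraries lie above all 4 juvenile libraries, and in the bottom row below them. Over all genes tested, 37.2% lay above and 27.6% below every juvenile library with *c-Myc*, and 38.2% and 29% with *c-Myc* + *R172H*. With library totals the log2 fold changes of *Scd2* and *Fads1* with *c-Myc* are above 0 (0.33 and 0.14).

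Of the 11 genes from squalene to cholesterol 2 were called higher and 2 lower, beside 28.4% and 25% of all genes tested. *Lss* and *Sqle* were higher with *c-Myc*, and *Msmo1*, the sterol methyl oxidase, and *Ebp* were lower. *Lss* was at 15.0 and 16.2 CPM with *c-Myc*, above its highest juvenile value of 10.3 CPM, and *Sqle* was at 14.8, 13.0, 22.6 and 15.1 CPM in juvenile and 26.8 and 26.6 CPM in *c-Myc* libraries. Their log2 fold changes were 0.66 (adjusted p = 0.0152, SE 0.20) and 0.65 (adjusted p = 0.0151, SE 0.20) by edgeR. *Msmo1* was at 11.8, 14.2, 13.2 and 8.82 CPM in juvenile and 6.30 and 6.50 CPM in *c-Myc* libraries, which did not overlap, with a log2 fold change of -0.97 (adjusted p = 0.00611, SE 0.25). *Ebp*, an X-linked gene, was at 28.9, 19.9, 18.6 and 25.5 CPM in juvenile and 17.8 and 14.8 CPM in *c-Myc* libraries (-0.58 (adjusted p = 0.0293, SE 0.20) by edgeR; 0.25 with library totals). The calls of *Lss*, *Sqle*, *Msmo1* and *Ebp* were lost without either *c-Myc* library, and that of *Ebp* also without juvenile replicate 1. *Cyp51* was at 24.6 and 24.2 CPM with *c-Myc*, within its juvenile range, with a log2 fold change of -0.021 and a 95% interval of -0.42 to 0.38. The other 6 genes of this branch were not called, with log2 fold changes from -0.75 (*Hsd17b7*) to 0.56 (*Nsdhl*).

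In the mevalonate pathway *Hmgcs1* was the gene called, at 43.1, 38.7, 55.8 and 27.3 CPM in juvenile and 25.1 and 30.2 CPM in *c-Myc* libraries. *c-Myc* replicate 2 was above juvenile replicate 4, and the log2 fold change was -0.64 (adjusted p = 0.0267, SE 0.22) by edgeR (0.18 with library totals). The call was lost without juvenile replicate 1 and without either *c-Myc* library, over a range of -0.80 to -0.48. *Acat2*, the cytosolic thiolase, was at 8.45 and 8.52 CPM, above all juvenile values, and *Pmvk* was at 4.95 and 4.37 CPM, below all of them, with log2 fold changes of 0.70 (adjusted p = 0.115, SE 0.36) and -0.63 (adjusted p = 0.0756, SE 0.28). *Mvk*, *Mvd*, *Idi1* and *Fdps* overlapped with the juvenile libraries and had log2 fold changes from -0.11 to 0.61.

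Of the 5 control genes *Scap* was called higher and *Insig1* and *Srebf1* lower, beside the same 28.4% and 25% of all genes, and *Srebf2* and *Stard4* were not called. *Scap* was at 39.1, 39.0, 39.2 and 50.3 CPM in juvenile and 82.4 and 76.4 CPM in *c-Myc* libraries, a log2 fold change of 0.86 (adjusted p = 6.98e-05, SE 0.12) by edgeR that was called in all 18 alternative fits. *Insig1* was at 66.8, 58.6, 73.6 and 70.9 CPM in juvenile and 35.0 and 41.4 CPM in *c-Myc* libraries, a log2 fold change of -0.88 (adjusted p = 9.97e-05, SE 0.13). Neither gene overlapped between the groups. *Srebf1* was at 46.9 and 54.1 CPM with *c-Myc*, below its lowest juvenile value of 59.6 CPM, with a log2 fold change of -0.57 (adjusted p = 0.00876, SE 0.16) by edgeR (0.26 with library totals), and its call was lost without *c-Myc* replicate 1 (-0.69 to -0.44 over the fits that left out a library). *Srebf2* was at 70.3 and 73.9 CPM, within the juvenile range, and its log2 fold change of -0.070 had a 95% interval of -0.38 to 0.24. *Stard4* had a log2 fold change of 0.34 and was not called.

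Other measures moved with *c-Myc* in the same libraries. The 12 proliferation markers summed to between 105 and 149 CPM in juvenile libraries and to 861 and 783 CPM in *c-Myc* libraries, and all 12 were called higher. The 12 chondrocyte markers summed to 1923 and 2154 CPM with *c-Myc*, against at least 18465 CPM in a juvenile library, and all 12 were called lower. All 10 osteoblast markers were called lower as well, with a median log2 fold change of -1.99, and 8 of 9 marrow stroma markers tested, with a median of -1.34. The 14 haematopoietic markers summed to 12.4 and 13.6 CPM, against at most 6.58 CPM in a juvenile library, and 1 of 4 tested was called higher. The 8 endothelial markers summed to 6.81 and 9.15 CPM, against at most 1.78 CPM, and 1 of 2 tested was called higher. The 8 osteoclast markers summed to 85.8 and 106 CPM, against at least 200 CPM, and 1 of 3 tested was called lower. With library totals the 12 proliferation and 12 chondrocyte markers were called in the same directions, 8 osteoblast markers were called lower and 2 had point estimates above 0, and 4 marrow stroma markers were called lower and 1 higher. The part of these markers in the values of the members was not tested. Without *c-Myc* replicate 1 or 2, which left 1 *c-Myc* library, fewer members were called in both directions, as were fewer of all genes. The median log2 fold change of the members was then -0.023 or -0.12, against -0.092 in the main fit. Without *c-Myc* + *R172H* replicate 1 or 2 that median was -0.094 or -0.093.

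The third comparison, *c-Myc* + *R172H* over *c-Myc*, had 2 libraries on each side. None of the 32 members was called by edgeR, none had an unadjusted p below 0.05, and DESeq2 called 0 of the 17 members for which it gave an adjusted p. Over all genes 58 were called lower (0.461%) and 1 higher (0.00794%). These counts depend on the fit, which shares its estimate of spread with the juvenile libraries. With only these 2 groups fitted, edgeR called 440 lower and 189 higher of 12170 genes, and 2 members lower. With a term for the replicate number added, it called 612 lower and 360 higher, and 3 members lower. The log2 fold changes of the members lay between -0.34 (*Scd2*) and 0.63 (*Tm7sf2*, whose 95% interval was -0.86 to 2.13), with a median of -0.018. With library totals the median of all genes was 0.21 and no member was called.

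The intervals bound these differences. For *Fasn*, at 658 and 653 CPM in *c-Myc* and 607 and 577 CPM in *c-Myc* + *R172H* libraries, the log2 fold change was -0.13 with a 95% interval of -0.34 to 0.089 (0.084 with library totals). *Elovl6* was at 57.5 and 57.0 CPM with *R172H* and *Acaca* at 63.7 and 59.1 CPM, with log2 fold changes of 0.044 (interval -0.45 to 0.54) and 0.073 (interval -0.32 to 0.46). The 4 desaturase genes were each lower in both *c-Myc* + *R172H* libraries than in both *c-Myc* libraries, without being called. Other fits called some of them lower: *Scd2* in 3 of 19 alternatives (adjusted p from 3.36e-05 to 1 by edgeR and DESeq2), *Fads2* in 2, *Scd1* in 1 and *Fads1* in none, all of them fits of these 2 groups alone or with a replicate block. *Scd2* was at 323 and 355 CPM with *c-Myc* and at 274 and 256 CPM with *R172H* added, a log2 fold change of -0.34 with an interval of -0.69 to 0.015 and an unadjusted p of 0.0591 by edgeR. *Fads2* was at 52.6 and 50.1 and 44.1 and 38.5 CPM (-0.30, interval -0.63 to 0.038), and *Scd1* at 94.1 and 86.1 and 73.6 and 73.6 CPM (-0.27, interval -0.63 to 0.092). *Fads1* had a log2 fold change of -0.16 (0.045 with library totals). In all, 11 members were below in both libraries and 3 above, beside 26.3% and 18.6% of all genes tested. Of the 10 osteoblast markers 9 had a point estimate below 0 and 1 was called lower. By edgeR 7 of the 10 had an unadjusted p below 0.05, beside 4.68% of all genes. The chondrocyte markers summed to 898 and 1069.7 CPM with *R172H* added.

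The *c-Myc* + *R172H* libraries were also set against the juvenile libraries, the same controls as for *c-Myc*, so the values of the comparisons are given side by side and are not independent. Here 8 members were called higher and 9 lower, beside 30.4% and 26.3% of all genes tested. Of the 8, *Sqle* was nearest the threshold (log2 fold change 0.50, adjusted p = 0.0498 by edgeR). It kept its call in 6 of 18 alternatives and lost it with RLE factors, with DESeq2, and without juvenile replicate 1, 2 or 4. *Elovl6* had a log2 fold change of 2.50 here and 2.45 with *c-Myc* alone, *Acaca* 1.42 and 1.35, *Fasn* 0.96 and 1.09, and *Acly* 0.74 and 0.86. *Scd1* had -1.41 here and -1.14 with *c-Myc* alone, and *Fads2* -1.49 and -1.19. *Scd2* had -0.84 and -0.50 and *Fads1* -0.87 and -0.70, and both were above 0 here too with library totals, where the median over all genes was 1.12 (0.21 and 0.18). *Acat2* (0.89 (adjusted p = 0.0477, SE 0.35) by edgeR) and *Hsd17b7* (-0.83 (adjusted p = 0.0326, SE 0.30); 0.22 with library totals) passed the threshold here, and *Hmgcs1* (-0.52 (adjusted p = 0.0578, SE 0.22)) did not, and whether these differ from their values with *c-Myc* alone is the comparison of the preceding paragraph, in which none was called. *Acat2* kept its call in 8 of 18 alternatives (adjusted p from 5.02e-04 to 0.226 by edgeR and DESeq2) and lost it with RLE factors, with DESeq2, and without juvenile replicate 1 or any 1 of the 4 induced libraries. *Hsd17b7* kept its call in 12 of 18 (0.0113 to 0.519) and lost it without juvenile replicate 2 or 4 or either *c-Myc* + *R172H* library. Without *c-Myc* + *R172H* replicate 2, which left 1 library in that group, fewer members were called higher, as were fewer of all genes.

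Lists of related genes were counted in the same tests, in which 3.23% of all genes were called lower and 1.89% higher between the ages. Between the ages, the smallest adjusted p by edgeR was 0.14 among 16 tested genes of other cholesterol and isoprenoid steps and 0.0618 among 16 genes of SREBP control, and 3 genes of each list had an unadjusted p below 0.05. Of 22 other genes of fatty acid synthesis, *Me1*, the malic enzyme that supplies NADPH, and *Hsd17b12*, a ketoreductase of elongation, were lower in juvenile libraries, with log2 fold changes of -0.94 and -0.73. Of 18 genes of sterol uptake, efflux and storage 4 were lower. Among them were *Lrp8*, an apolipoprotein E receptor (3.62, 2.05, 3.15 and 1.84 CPM in juvenile and 24.0, 9.36, 12.3 and 22.8 CPM in adult libraries, log2 fold change -2.68), *Apoe* (-1.40) and *Soat1*, which esterifies cholesterol (-0.85). In contrast, 2 of 21 genes of fatty acid oxidation were higher and none lower. *Cpt1a*, which admits long-chain fatty acids to mitochondria, was at 53.1, 55.8, 48.9 and 44.5 CPM in juvenile and 26.3, 28.6, 26.9 and 21.0 CPM in adult libraries, with a log2 fold change of 0.97 (adjusted p = 0.00114, SE 0.14) by edgeR, and *Acaa2*, a mitochondrial thiolase, had 0.88. Of 27 genes of triglyceride and phospholipid synthesis *Ptdss1*, a phosphatidylserine synthase, was lower (-0.54). The list medians were between -0.20 and 0.027, beside -0.59 for the 32 members.

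With *c-Myc*, 6 of 16 genes of other cholesterol and isoprenoid steps were higher and 2 lower, and the counts of this and the following lists stand beside 28.4% and 25% of all genes tested. *Pdss1*, of ubiquinone synthesis, was higher, with a log2 fold change of 3.23 (adjusted p = 1.84e-04, SE 0.51) by edgeR. Of 17 genes of SREBP control 6 were higher and 3 lower. *Ppargc1b*, a coactivator, and *Erlin1* had log2 fold changes of 2.55 and 1.88. *Mlxipl*, which encodes the carbohydrate response factor ChREBP, was at 0, 0, 0 and 0.122 CPM in juvenile and 7.33 and 7.31 CPM in *c-Myc* libraries, with no fold given because no juvenile library had more than 3 counts.

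Of 23 other genes of fatty acid synthesis 8 were higher with *c-Myc* and 2 lower. *Mecr*, of mitochondrial fatty acid synthesis, and *Fads6* had log2 fold changes of 2.31 and 2.68, while *Fads3*, a relative of *Fads1* and *Fads2* in the same cluster on chromosome 19, was at 72.1, 65.1, 51.5 and 67.3 CPM in juvenile and 15.3 and 15.2 CPM in *c-Myc* libraries (-2.14). Of 20 genes of sterol uptake, efflux and storage 3 were higher and 9 lower. *Lrp1*, an endocytic receptor, was at 1388, 1188, 1273 and 1283 CPM in juvenile and 218 and 285 CPM in *c-Myc* libraries (log2 fold change -2.41), *Lrp8* was higher (2.40), and *Cyp27a1*, a sterol hydroxylase also called higher, was at 1.26 and 0.921 CPM with *c-Myc* and listed at 0 in 3 of 4 juvenile libraries. Of 23 genes of fatty acid oxidation 6 were higher and 3 lower, with *Acadm* at 1.29, *Eci1* at 1.00 and *Ppard* at -1.04. Of 28 genes of triglyceride and phospholipid synthesis 6 were higher and 5 lower, with *Dgat2* at 2.77, *Agpat5* at 1.92 and *Lpin3* at -2.86 as those of the largest log2 fold change among the called. The shares of fatty acid oxidation and of triglyceride and phospholipid genes called were below those of all genes in both directions, but only by a few genes. These differences were not tested. With *R172H* added to *c-Myc*, the smallest adjusted p by edgeR in these lists was 0.0681, in the list of sterol uptake, efflux and storage.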

How the data were processed

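Bulk RNA-seq was measured in 12 libraries of sorted mGFP+ cells (juvenile, 4; adult, 4; *c-Myc*, 2; *c-Myc* + *R172H*, 2), grouped by their titles. The authors used cutadapt 4.6 for trimming of the 86-base reads, STAR 2.7.11a for alignment to mm10 and HTSeq 2.0.5 for counting, and deposited raw counts per gene with no normalization. The GENCODE release differs between alignment and counting in the methods, and the strand setting of the counting is not given in the sources used here, so the split of reads between a gene and an antisense neighbour is uncertain.

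In R 4.3.3, counts were tested with edgeR 4.0.16 (TMM factors, the default expression filter, robust quasi-likelihood F test, Benjamini-Hochberg adjustment over all genes tested, called at 0.05). The ages were fitted with their 8 libraries, and the other comparisons in a fit of the juvenile and both induced groups, since 2 libraries a group give little information on the spread. The SE is an approximation, the log2 fold change over the root of F. CPM used TMM factors over all 12 libraries. The number of animals behind induced libraries is not given in the sources used here. *Xist* separates replicate 1 from replicate 2 in both induced groups, so these are not 1 animal measured again. The p-values measure the spread between these libraries. Intervals assume the model's spread, and low counts are limited by depth (3 counts correspond to 0.27 to 0.41 CPM in juvenile libraries).

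The genes to be named were all 32 members, up to 3 called genes of largest fold change in each related list, and checks of labels, composition and other cell types. Some genes that this rule names are not reported here. The members and lists were chosen with earlier results of these data known. Coordinates and exon lengths are from GENCODE on GRCm38. The fits were tested on simulated counts. Alternatives were RLE factors, library totals, other filters, DESeq2 1.42.0, other sets of libraries, a replicate block, the loss of *Col1a1*, *Col1a2* and *Gm26917*, and each library left out. A chondrocyte score as covariate and the loss of both *Xist*-high libraries were chosen after seeing the data. Counts of every replicate pair differed by more than sampling noise.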

Additional observations from a re-analysis of the deposited data

Results flagged for a closer look

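In 4 of 64 groups checked (32 genes in 4 juvenile or 4 adult libraries), 1 library lay far from the other 3 of its group by Dixon's criterion, which flags about 1 group in 20 by chance. *Sqle* was at 16.8 CPM in adult replicate 2 and between 29.3 and 31.2 CPM in the other adult libraries. *Lss* was at 7.35 CPM in juvenile replicate 4 and between 10.0 and 10.3 CPM in the others. *Nsdhl* was at 1.79 CPM in adult replicate 3 and between 4.79 and 5.12 CPM in the others. *Scap* was at 50.3 CPM in juvenile replicate 4 and between 39.0 and 39.2 CPM in the others. In fits that each left out 1 library, *Lss* was called lower in juvenile libraries in all 8.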

How the results depend on the processing

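The members were counted as called under each alternative, and the counts moved by more than 1.5 times in the following. For the ages, 7 members were called lower. The number was 16 with library totals, 16 without a filter on low counts, 11 with DESeq2, 13 with all 12 libraries in the fit, 0 with the chondrocyte score, and 4 to 16 when each library was left out. Over all genes, 793 of 11345 were lower with library totals, 578 of 16862 without a filter and 619 of 13122 with DESeq2. With all 12 libraries 633 of 13005 were lower, with the chondrocyte score 51 of 11345, and 199 to 541 when each library was left out. The main fit called 367 lower. With *c-Myc*, library totals gave 16 higher and 0 lower in place of 7 and 9. Without *c-Myc* replicate 1, which left 1 library in that group, fewer members were called lower, as were fewer of all genes. Fits without 1 juvenile library moved less and called 8 to 11 lower, beside 3014 to 3337 of all genes (3149 in the main fit). For *c-Myc* + *R172H* over *c-Myc*, where none was called, a fit of those 2 groups alone called 2 lower (*Scd2* and *Fads2*). That fit called 440 lower and 189 higher of the 12170 genes tested. With library totals, 6803 of 12588 genes were higher and 1115 lower with *c-Myc*. In the same setting 7668 were higher and 1169 lower for *c-Myc* + *R172H* over juvenile. For *c-Myc* + *R172H* over juvenile, library totals gave 19 higher and 1 lower in place of 8 and 9, leaving out both *Xist*-high libraries gave 5 and 5, and leaving out each library gave 5 to 8 higher.

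The title numbers gave a replicate block. Deviations of same-numbered juvenile and adult libraries correlated at 0.115, -0.145, 0.0288 and -0.0868, so the numbers were not taken to pair libraries. Between the induced groups the correlation was 0.294 for both numbers. With 2 libraries a group these values are equal by construction, so they count as 1. Replicate 2 of both induced groups was also the library high in *Xist*. With the block 6 members were called lower between the ages, 7 were higher and 12 lower with *c-Myc*, and 1 was lower for *c-Myc* + *R172H* over *c-Myc*, or 3 (*Scd1*, *Scd2* and *Fads2*) when only those 2 groups were fitted. Over all genes the block gave 268 lower between the ages, and 4044 higher and 3640 lower with *c-Myc*. It gave 296 lower for *c-Myc* + *R172H* over *c-Myc*, or 612 when only those 2 groups were fitted. The block turned the log2 fold changes of *Mvd* -0.20, *Idi1* -0.019 and *Fdps* 0.26 with *c-Myc*.

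Point estimates of all members for the ages and for *c-Myc*, and of those stated otherwise, changed sign as follows, and the cause was not tested except where the scale itself moved the median of all genes. With library totals, for the ages *Ebp* -0.047 and *Scap* -0.18. With *c-Myc*, *Hmgcs1* 0.18, *Pmvk* 0.19, *Fdps* 0.73, *Fdft1* 0.56, *Cyp51* 0.80, *Tm7sf2* 0.63, *Hsd17b7* 0.095, *Ebp* 0.25, *Sc5d* 0.15, *Srebf1* 0.26, *Srebf2* 0.76, *Acss2* 0.50, *Scd2* 0.33 and *Fads1* 0.14. For *c-Myc* + *R172H* over *c-Myc* 13 of the 32 changed, among them, of the 9 fatty acid genes, *Acly* 0.088, *Fasn* 0.084 and *Fads1* 0.045. For *c-Myc* + *R172H* over juvenile 15 changed, among them, of the 17 called, *Hsd17b7* 0.22, *Ebp* 0.44, *Srebf1* 0.44, *Insig1* 0.12, *Scd2* 0.21 and *Fads1* 0.18. With the chondrocyte score, for the ages *Acat2* 1.12, *Hmgcs1* 0.27, *Mvk* 0.10, *Pmvk* 0.14, *Mvd* 0.19, *Fdft1* 0.14, *Msmo1* 0.31, *Ebp* -0.081, *Sc5d* 0.022, *Dhcr7* 0.35, *Stard4* 0.033, *Fasn* 0.066 and *Elovl6* 0.14. With *c-Myc*, *Cyp51* was 0.034 without a filter and 0.0024 with all 12 libraries. Without both *Xist*-high libraries 7 changed for *c-Myc* + *R172H* over *c-Myc*, and of the 9 fatty acid genes *Elovl6* was the one, at -0.064. In the other alternatives at most 6 members changed in this comparison and at most 3 in *c-Myc* + *R172H* over juvenile. Ranges over fits that left out 1 library spanned 0 for *Mvk* -0.24 to 0.24 and *Scap* -0.036 to 0.23 between the ages, for *Cyp51* -0.14 to 0.046, *Tm7sf2* -0.35 to 0.047, *Fdps* -0.32 to 0.094, *Fdft1* -0.52 to 0.0099, *Srebf2* -0.15 to 0.011 and *Mvd* -0.073 to 0.36 with *c-Myc*, and for *Acss2* -0.041 to 0.39, *Elovl6* -0.065 to 0.10 and *Acaca* -0.0034 to 0.092 with *R172H* added. None of these genes was called in the main comparison concerned except *Hmgcs1*, *Ebp*, *Srebf1*, *Scd2* and *Fads1* with *c-Myc* and the 6 named for *c-Myc* + *R172H* over juvenile. At least 10 counts in every library left out 3 members.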
